A study of Fukomys damarensis with 47 samples.

Results

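The genes described here are the solute carrier (SLC) genes of the plasma membrane, Golgi, endoplasmic reticulum and lysosome that were expressed in bone marrow cell cultures of Damaraland mole-rats (*Fukomys damarensis*). A gene was included if its symbol in the study's annotation table starts with SLC and a digit, if it is not a mitochondrial carrier of the SLC25 family, and if its CPM (its counts relative to all counts of the library) reached 2 in 25% of the 47 libraries or more. This gave 15 genes of the 11047 that passed the same expression filter. Symbols were at hand for 1138 of the 11047, so further SLC genes may stand among those without a symbol. Of the 15 genes, 14 are transporters or belong to transporter families by sequence. SLC7A6OS is not a transporter: it was named for its place on the opposite strand to SLC7A6 and was kept because the rule is about the symbol.

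RNA-Seq was performed on cultures enriched for mesenchymal stromal cells of the marrow (bMSCs, the precursors of bone-forming, cartilage and fat cells) from 16 females of 8 natal colonies, aged 1003 to 1232 days. The animals were 5 queens (breeding females), 7 helpers (nonbreeding members of a colony) and 4 solitaires (nonbreeding females housed alone), and the last 2 groups make up the 11 nonbreeders. Cells came from pooled long bones (26 libraries from 16 animals) or from lumbar vertebrae LV1 to LV5 (21 libraries from 14 animals, of which 4 were queens), and were cultured for 24 hr with 10 nM estradiol (18 libraries) or with vehicle (29 libraries). The LV were incubated with Collagenase P and the long bones were not, so bone type and this step cannot be told apart. Estradiol and vehicle libraries of an animal are separate cultures of the same marrow.

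SLC proteins move ions, nutrients and metabolites across membranes along or against their gradients, often coupled to sodium, protons or chloride. Bone-forming cells make large amounts of collagen and glycosylated matrix, for which amino acids must enter the cell and nucleotide sugars must enter the Golgi. Zinc and magnesium carriers supply cofactors of matrix enzymes, carnitine carriers bring in the carnitine needed for fatty acid oxidation, and cation-chloride cotransporters set cell volume.

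All 15 genes passed the filter, which asked for 12 libraries. SLC46A1, the proton-coupled folate transporter, reached 2 CPM in 28 libraries, SLC22A5, the carnitine transporter OCTN2, in 31, and SLC12A7, the potassium-chloride cotransporter KCC4, in 33. These 3 genes had the fewest counts, with 2 to 4 counts in their lowest libraries, so counting error was largest for them. SLC7A6OS, SLC38A1, SLC35A3, SLC41A2, SLC37A4, SLC36A4, SLC35A2 and SLC39A1 reached it in all 47 libraries. Together the 15 genes took between 0.0175% and 0.0691% of the counts of a library, at depths of 5329563 to 16327339 counts.

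The stromal identity of the cultures was checked with 13 osteoblast and stromal markers and 15 leukocyte markers. Averaged over the list, the stromal markers were at a log2 CPM of 6.51 in the long bones of queens and 6.84 in those of nonbreeders. The leukocyte markers were at 3.74 and 3.15. One queen, MAF006, stood apart: in her long bones the stromal markers summed to 407 CPM, where the other 15 animals had at least 1837 CPM, and the leukocyte markers summed to 3464 CPM, the highest of the 16 animals. Correlations with these markers are therefore also given without her. In bulk cultures, fewer cells of a type and less RNA per cell cannot be told apart.

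The genes differed in how much they varied between libraries. SLC38A10, a relative of the glutamine transporter SLC38A1, ranged over the 47 libraries from 1.10 CPM (scaled by TMM, the trimmed mean of M values, as are all levels below) in a vehicle LV culture of the solitaire WEF001 to 114 CPM in a vehicle long bone culture of the queen DVF007. SLC22A17, a family member known as a receptor for lipocalin 2, ranged from 1.34 CPM in the LV culture of MAF006 to 77.6 CPM in that same vehicle culture of DVF007. SLC12A7 ranged from 0.368 CPM in the vehicle LV culture of WEF001 to 26.7 CPM in the estradiol long bone culture of the queen LAF007. Over the 16 animals with long bone libraries, the standard deviation of log2 CPM was 1.46 for SLC38A10, 1.22 for SLC22A17 and 1.04 for SLC12A7, against a median of 0.49 over all tested genes. Of the tested genes, 94.9%, 91.4% and 86.9% varied as much or less. SLC7A6OS was the steadiest, with a standard deviation of 0.24 (8.59% of tested genes varied as much or less). Over the 14 animals with LV libraries it was 1.22 for SLC22A17 (92.5%), 1.16 for SLC6A15 (91.35%), 0.96 for SLC38A10 (85.9%), 0.91 for SLC12A7 (83.96%) and 0.24 for SLC7A6OS (10.7%), so SLC6A15 was among the most variable in the LV and SLC38A10 varied less there than in the long bones.

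**Figure D1:**
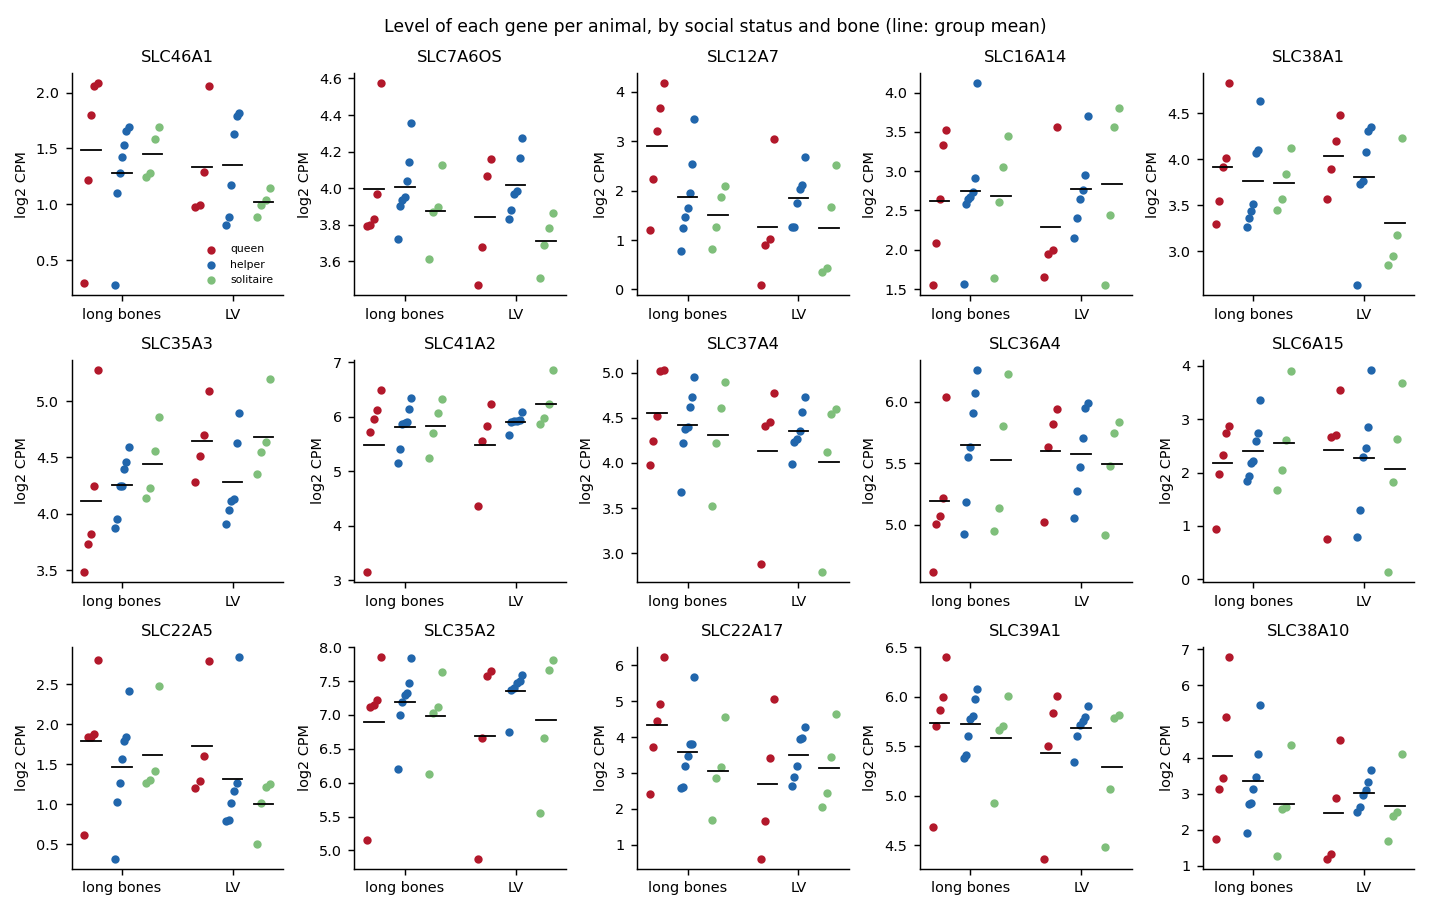
Level of each of the 15 genes per animal, as log2 CPM with an animal's libraries of each bone type added (y axis), for queens, helpers and solitaires in the long bones (16 animals) and LV (14 animals), with lines at the group means. The levels of queens overlapped those of nonbreeders for all 15 genes in both bone types, and MAF006 is the lowest queen point for SLC41A2 and SLC35A2 in both.

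The estradiol and vehicle cultures gave 17 pairs of libraries that share an animal and a bone type, 10 from the long bones and 7 from the LV. In these pairs SLC38A10 differed by more than 2-fold in 10 of 17, in both directions. LAF007 had 3.32 CPM with vehicle and 76.1 CPM with estradiol in the long bones, and the helper WAF011 had 4.35 and 29.9 CPM there. The order was opposite in the long bones of the helper WEF002, with 12.9 CPM under vehicle and 1.81 CPM under estradiol, as it was in the LV of the queen WAF014, with 36.7 and 5.29 CPM. WAF011 went one way in the long bones and the other in the LV, where SLC38A10 was at 14.9 CPM with vehicle and 3.30 CPM with estradiol. Thus SLC38A10 was higher with estradiol in 10 of 17 pairs, while the size of the difference was large in either direction.

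The median absolute difference within these pairs was 1.36 on the log2 scale for SLC38A10, which 99.45% of tested genes did not exceed. It was 0.92 for SLC22A17 (95.5%), 0.86 for SLC46A1 (94.1%) and 0.80 for SLC16A14, a monocarboxylate transporter family member (92.4%), and 0.70 for SLC22A5 (88.6%), 0.63 for SLC38A1 (85.05%) and 0.54 for SLC12A7 (78.4%). The 2 Golgi nucleotide sugar transporters were lower in this ranking, with 0.48 for SLC35A2, which carries UDP-galactose (71.55%), and 0.30 for SLC35A3, which carries UDP-N-acetylglucosamine (40.5%). SLC37A4, the glucose-6-phosphate carrier of the endoplasmic reticulum, had 0.32, SLC41A2, a magnesium transporter, 0.37, and SLC36A4, a carrier of proline and tryptophan, 0.35, near the median of all tested genes of 0.35. SLC7A6OS had 0.17 (11.3%). This measure was chosen after the values were seen and is a description. The lowest library of SLC46A1 held 3 counts.

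**Figure D2:**
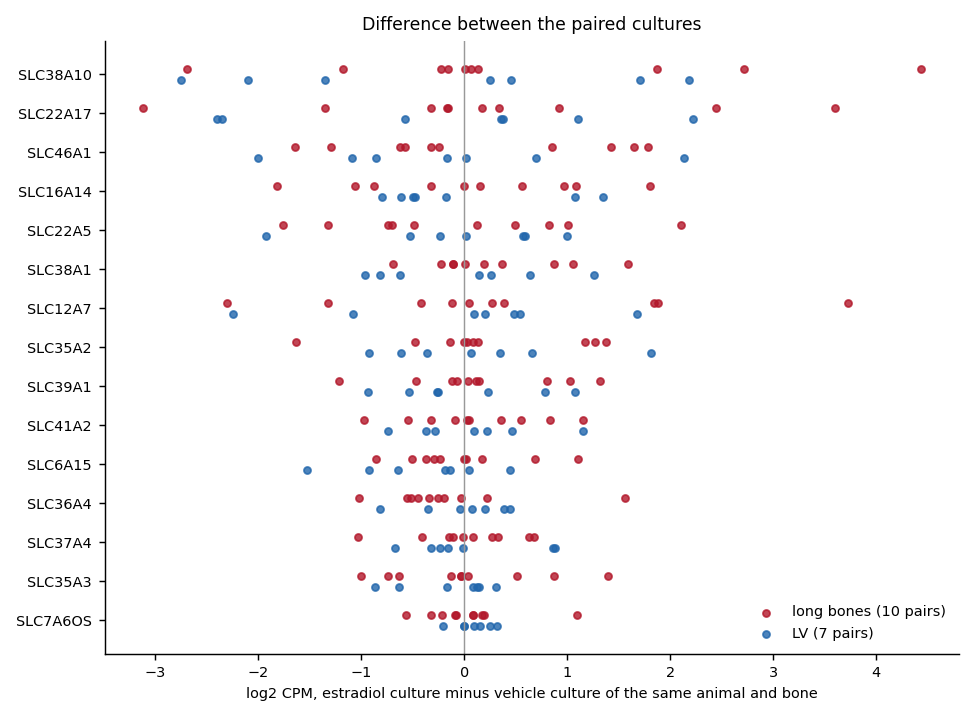
Difference in log2 CPM between the estradiol and the vehicle culture of the same animal and bone type (x axis) for each of the 15 genes (y axis, ordered by median absolute difference), with 10 long bone pairs and 7 LV pairs as points. SLC38A10, SLC22A17 and SLC12A7 spread to both sides of 0, up to 4.43, 3.60 and 3.73 in size, while all but 1 SLC7A6OS pair lay between -0.56 and 0.32.

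SLC38A10, SLC22A17 and SLC12A7 varied together. Over the animals, the correlation of SLC38A10 with SLC22A17 was r = 0.97 in the long bones (Spearman rho = 0.97, permutation p = 1e-05, the smallest that 100000 resamples can give, Benjamini-Hochberg adjusted p = 0.00035, n = 16) and r = 0.96 in the LV (rho = 0.93, permutation p = 1e-05, adjusted p = 0.00035, n = 14). It was 0.94 in both bone types without the 2 animals farthest from the median of SLC38A10, and 0.92 and 0.95 after the colony means were removed. SLC12A7 and SLC22A17 had r = 0.91 in the long bones (rho = 0.89, permutation p = 1e-05, adjusted p = 0.00035), and it was 0.90 in the LV (rho = 0.91, permutation p = 3e-05, adjusted p = 0.0007). After removal of the 2 animals farthest from the median of SLC22A17 these were 0.84 and 0.84, and with colony means removed 0.79 and 0.85. These pairs of genes were picked after their values were seen, among 210 correlations (105 pairs of genes in each bone type), of which 28 long bone pairs and 20 LV pairs had an adjusted permutation p under 0.05. The share of such pairs over all genes is not given here, so these counts do not set the SLC genes apart.

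**Figure D3:**
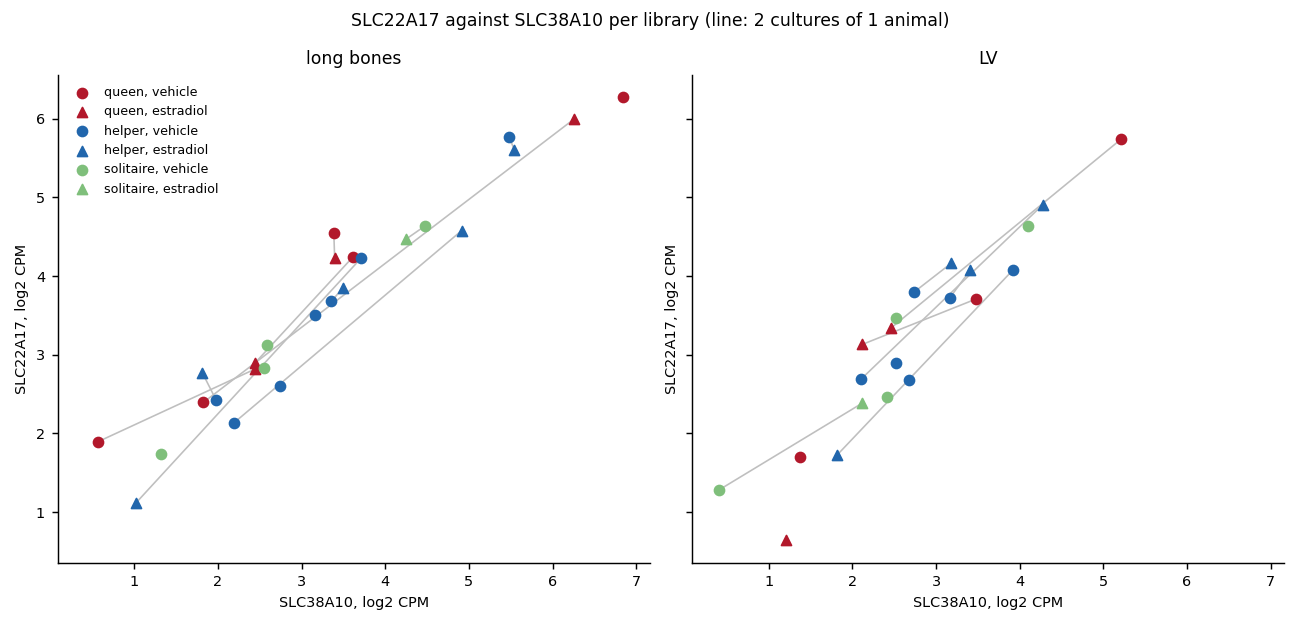
SLC22A17 (y axis) against SLC38A10 (x axis), both in log2 CPM, for each long bone library (left) and LV library (right), with queens, helpers and solitaires by colour, vehicle as circles and estradiol as triangles, and a line joining the 2 cultures of an animal. The genes rose and fell together between the 2 cultures of an animal, as in LAF007, WEF002 and WAF014.

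SLC35A2 and SLC39A1, the zinc importer ZIP1, also varied together. These 2 genes had r = 0.93 in the long bones (rho = 0.84, permutation p = 1e-05, adjusted p = 0.00035, n = 16) and 0.96 in the LV (rho = 0.77, permutation p = 2e-05, adjusted p = 0.0006, n = 14). Without the 2 farthest animals r was 0.81 and 0.85, and with colony means removed 0.84 and 0.78. They were not set apart from the other genes: SLC39A1 had r = 0.81 with SLC38A10 in the long bones (rho = 0.80, permutation adjusted p = 0.00276, 0.74 without the 2 farthest animals and 0.47 with colony means removed). In the LV, SLC37A4 had r = 0.94 with SLC35A2 (rho = 0.86, permutation adjusted p = 0.00129) and 0.94 with SLC39A1 (rho = 0.75, adjusted p = 0.00122). These fell to 0.73 and 0.72 without the 2 farthest animals and to -0.03 and 0.04 with colony means removed. SLC35A2 also followed SLC41A2 in the long bones (r = 0.95, rho = 0.91, permutation p = 1e-05, adjusted p = 0.00035, and 0.92 without the 2 farthest animals, 0.97 with colony means removed). In the LV this relation was weaker (r = 0.73, permutation p = 0.00618, adjusted p = 0.0288, rho = 0.53, adjusted p = 0.147, and r = 0.55 without the 2 farthest and 0.82 with colony means removed) and rested on MAF006, without whom r was 0.36. SLC35A2 and SLC35A3, which serve the same organelle, did not share this pattern: over the 47 libraries SLC35A2 had r = 0.89 with the first principal component of all tested genes, and SLC35A3 had r = -0.003.

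That component held 35.45% of the variance of the 11047 genes, and the SLC genes differed in how far they followed it. The share of all tested genes at such values is not given here, so they do not set the SLC genes apart. Over the 47 libraries r was 0.87 for SLC39A1, 0.80 for SLC38A10, 0.79 for SLC41A2, 0.76 for SLC22A17 and 0.69 for SLC16A14. It was 0.68 for SLC37A4, 0.67 for SLC12A7 and SLC38A1, 0.54 for SLC22A5 and 0.39 for SLC46A1. It was near 0 for SLC7A6OS (-0.09) and SLC36A4 (-0.10), and 0.14 for SLC6A15, a sodium-dependent carrier of branched-chain amino acids and proline. Libraries of an animal are not independent, so these values are a description. With SLC38A10, 1102 of the other 11046 genes (9.98%) had r above 0.8, and 243 (2.20%) had r below -0.8, so its pattern was shared by many genes. SLC36A4 had no gene above 0.8.

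Measures of the libraries moved with some of these genes and not with others. Over the 47 libraries, SLC38A10 had r = -0.73 with the mean level of 8 proliferation markers, 0.62 with the share of counts taken by the 100 most counted genes and 0.33 with the total count. For SLC7A6OS and SLC36A4, r was -0.06 and 0.21 with the proliferation markers, and -0.10 and 0.09 with that share of counts. How many of all tested genes had such values is not given here. In the long bones of LAF007, where SLC38A10 was high with estradiol, the 100 most counted genes took 32.6% of the counts with vehicle and 35.6% with estradiol, at 10445135 and 9203908 counts. In those of WEF002, where it was high with vehicle, they took 32.9% with vehicle and 29.2% with estradiol, at 6174122 and 7376301 counts. The part of these measures in the levels of the SLC genes was not tested.

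The share of all tested genes that followed the marker lists is not given here, so the relations below do not set the SLC genes apart. Over animals, SLC41A2 rose with the stromal markers in the long bones, with r = 0.95 (rho = 0.84, permutation p = 1e-05, adjusted p = 2e-04 over 60 relations, n = 16). It was 0.77 without the 2 animals farthest from the median marker level, 0.82 without MAF006 and 0.95 with colony means removed. In the LV it was 0.70 (rho = 0.71, permutation p = 0.0026, adjusted p = 0.0173, n = 14), 0.59 without the 2 farthest, 0.68 without MAF006 and 0.71 with colony means removed. SLC41A2 was at 8.77 CPM in the long bones of MAF006, where the stromal markers were lowest, and between 52.7 and 89.1 CPM in those of the other 4 queens. In the LV, SLC41A2 was at 20.3 CPM in MAF006 and between 46.6 and 74.7 CPM in the other 3 queens.

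SLC38A10 and SLC22A17 rose with the stromal markers in both bone types. For SLC38A10, r was 0.95 in the LV (rho = 0.88, permutation p = 1e-05, adjusted p = 2e-04, n = 14), 0.90 without the 2 farthest animals, 0.93 without MAF006 and 0.97 with colony means removed. In the long bones it was 0.72 (rho = 0.91, permutation p = 0.00209, adjusted p = 0.0157, n = 16), 0.92 without the 2 farthest, 0.94 without MAF006 and 0.50 with colony means removed. For SLC22A17, r was 0.92 in the LV (rho = 0.90, permutation p = 1e-05, adjusted p = 2e-04), 0.89 without the 2 farthest, 0.92 without MAF006 and 0.90 with colony means removed. In the long bones it was 0.67 (rho = 0.84, permutation p = 0.00295, adjusted p = 0.0177), 0.84 without the 2 farthest, 0.89 without MAF006 and 0.39 with colony means removed, so within colonies r was smaller there. SLC12A7 (r = 0.88, rho = 0.82, permutation adjusted p = 0.00036), SLC16A14 (r = 0.83, rho = 0.81, adjusted p = 0.00223) and SLC35A2 (r = 0.66, rho = 0.71, adjusted p = 0.0445) also rose with the stromal markers in the LV, with 0.80, 0.75 and 0.65 without the 2 farthest animals, 0.85, 0.83 and 0.55 without MAF006 and 0.87, 0.92 and 0.59 with colony means removed.

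SLC35A2 (0.89, permutation adjusted p = 0.00036), SLC39A1 (0.85, adjusted p = 0.0004), SLC38A1 (0.67, adjusted p = 0.0209) and SLC16A14 (0.65, adjusted p = 0.0196) also rose with the stromal markers in the long bones, with Spearman's rho of 0.83, 0.76, 0.85 and 0.64. Without the 2 farthest animals r was 0.71, 0.71, 0.79 and 0.62, without MAF006 it was 0.76, 0.79, 0.85 and 0.63, and with colony means removed it was 0.95, 0.83, 0.44 and 0.59. SLC7A6OS fell with them (r = -0.69, rho = -0.29, permutation p = 0.0102, adjusted p = 0.0439), but this rested on MAF006: without her r was -0.28, and without the 2 farthest animals -0.37. With the leukocyte markers no gene had an adjusted permutation p under 0.05 in the long bones. In the LV, SLC7A6OS (r = -0.69, rho = -0.69, permutation p = 0.00759, adjusted p = 0.035) and SLC6A15 (r = -0.65, rho = -0.62, permutation p = 0.0123, adjusted p = 0.046) had lower levels where leukocyte markers were higher. Without the 2 farthest animals these were -0.75 and -0.47, without MAF006 -0.59 and -0.58, and with colony means removed -0.51 and -0.03, so for SLC6A15 no relation was seen within colonies.

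**Figure D4:**
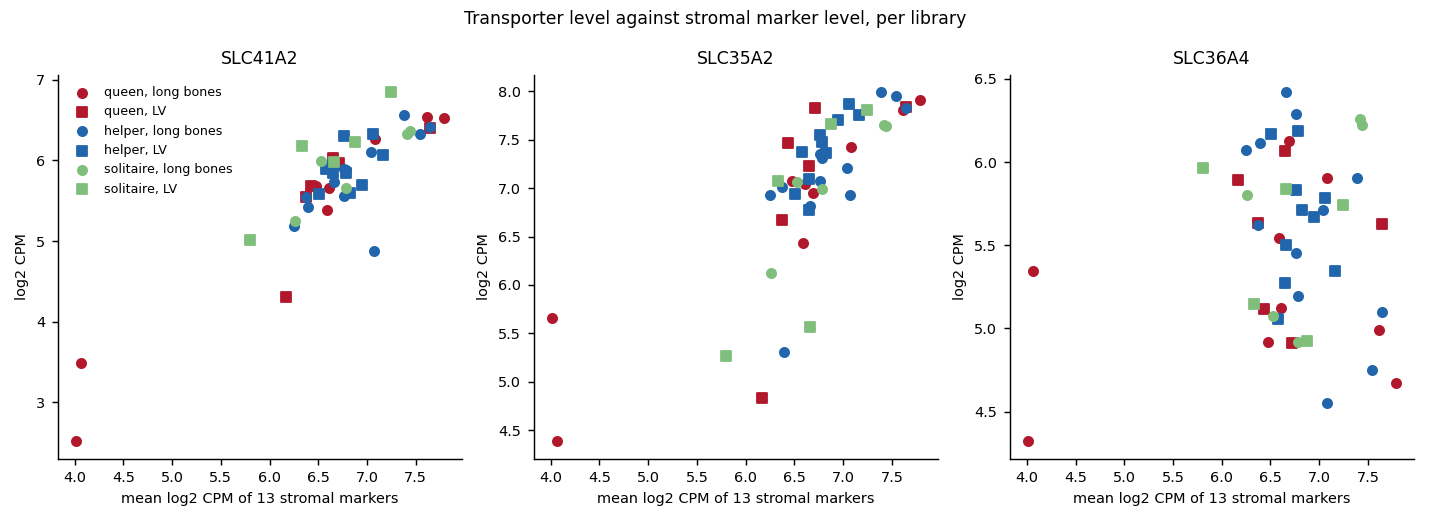
Log2 CPM of SLC41A2, SLC35A2 and SLC36A4 (y axes) against the mean log2 CPM of 13 stromal markers (x axis) per library, with queens, helpers and solitaires by colour, long bones as circles and LV as squares. The 2 long bone libraries of MAF006 lie far to the left, SLC41A2 and SLC35A2 rise with the stromal markers among the others, and SLC36A4 shows no such rise.

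The study asked whether breeding status goes with gene expression in these cells. For the long bones, an animal's libraries were added, natal colony was a block, and edgeR's quasi-likelihood test with Benjamini-Hochberg adjustment was fitted over all 11047 genes. The animals are separate individuals and colony was a block, so these p-values measure the spread between animals within a colony. The queen estimate rests on the 5 pairs of a queen and her sister. None of the 15 genes passed an FDR of 10% (0.0% of all genes did) or of 20% (1.48% of all genes did). At an unadjusted p under 0.05, 1 of the 15 was called, against 8.69% of all genes. By the sign of the estimate 6 of 15 were higher in queens, where 52.3% of all genes were, and the median log2 fold change was -0.04 over the 15 and 0.02 over all genes. By group means of log2 CPM, with no colony term, 9 of 15 were higher in queens. In the same fit 13 of 15 leukocyte markers were higher by sign in the long bones of queens, with a median log2 fold change of 1.60. Their summed level there ran from 270 to 3464 CPM in queens and from 128 to 1218 CPM in nonbreeders. In the LV fit 13 of 15 were also higher by sign, but their mean log2 CPM was 2.31 in queens and 2.49 in nonbreeders. None of the 13 stromal markers was higher in the long bones of queens, with a median of -0.43, and none of either list passed an FDR of 10%. The summed stromal level overlapped, with a median of 3478 CPM in queens (407 in MAF006 to 8473 in DVF007) and 2892 CPM in nonbreeders (1837 to 5360). Their part in the SLC values was not tested.

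The gene called without adjustment was SLC12A7. Its level in the long bones of queens was 17.9 CPM in DVF007, 12.6 in LAF007, 9.10 in NOF009, 4.55 in WAF014 and 2.17 in MAF006. In the 11 nonbreeders it ran from 1.58 to 10.8 CPM with a median of 2.98 CPM. Both DVF007 and LAF007 lay above all nonbreeders, NOF009 lay above all but the helper DVF008, a sister of DVF007, and the groups overlapped. The log2 fold change was 0.85 (SE 0.33, 95% interval 0.13 to 1.57, edgeR unadjusted p = 0.0244, adjusted p = 0.461). In each of the 5 queen and sister pairs the queen had the higher level, by 0.27 to 2.20 on the log2 scale, and a common sign in all 5 pairs was seen in 9.0% of all genes. The treatments added were unlike in some pairs. LAF007 and MAF006 had vehicle and estradiol libraries, and their sisters LAF008 and MAF003 had vehicle only. DVF007 had vehicle only, and her sister DVF008 had both. An exact permutation test of log2 CPM over the 4368 splits of the animals gave a difference of 1.16 (2.90 ± 1.18 SD in 5 queens, 1.74 ± 0.78 in 11 nonbreeders, two-sided p = 0.0341, adjusted p = 0.888 over 60 tests). With vehicle libraries only the fold change was 0.47 (edgeR unadjusted p = 0.327), and without LAF007 or her sister LAF008 it was 0.52 (adjusted p = 0.618 and 0.614).

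For the other transporters of ions and metals, the 95% intervals bound the difference between queens and the other females. SLC39A1 had a log2 fold change of -0.10 in the long bones (interval -0.56 to 0.35). SLC41A2 had -0.44 (interval -1.22 to 0.33), which was -0.002 without MAF006 or her sister MAF003. Among the amino acid carriers, SLC38A1 had -0.04 (interval -0.51 to 0.44), SLC36A4 had -0.17 (-0.54 to 0.20) and SLC6A15 had -0.13 (-0.82 to 0.57). SLC38A10 had 0.37 with a wide interval of -0.82 to 1.57, and was -0.13 without LAF007 or LAF008: queens were at 110, 34.9, 10.7, 8.69 and 3.18 CPM and nonbreeders ran from 2.26 to 44.0 CPM with a median of 6.50 CPM. Of the sugar carriers, SLC35A2 had -0.45 (-0.99 to 0.09, edgeR adjusted p = 0.662), which was -0.12 without MAF006 or MAF003, SLC35A3 -0.09 (-0.65 to 0.47) and SLC37A4 0.05, with the narrowest interval of the 14 transporters (-0.30 to 0.39). SLC22A5 had 0.31 (-0.51 to 1.13), SLC22A17 0.59 (-0.36 to 1.53), SLC46A1 0.14 (-0.58 to 0.86) and SLC16A14 -0.39 (-1.05 to 0.27). Without LAF007 or LAF008 the value of SLC22A17 was 0.18, and without WAF011 or WAF014 that of SLC22A5 was -0.02. SLC7A6OS had -0.01 (-0.42 to 0.40).

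**Figure D5:**
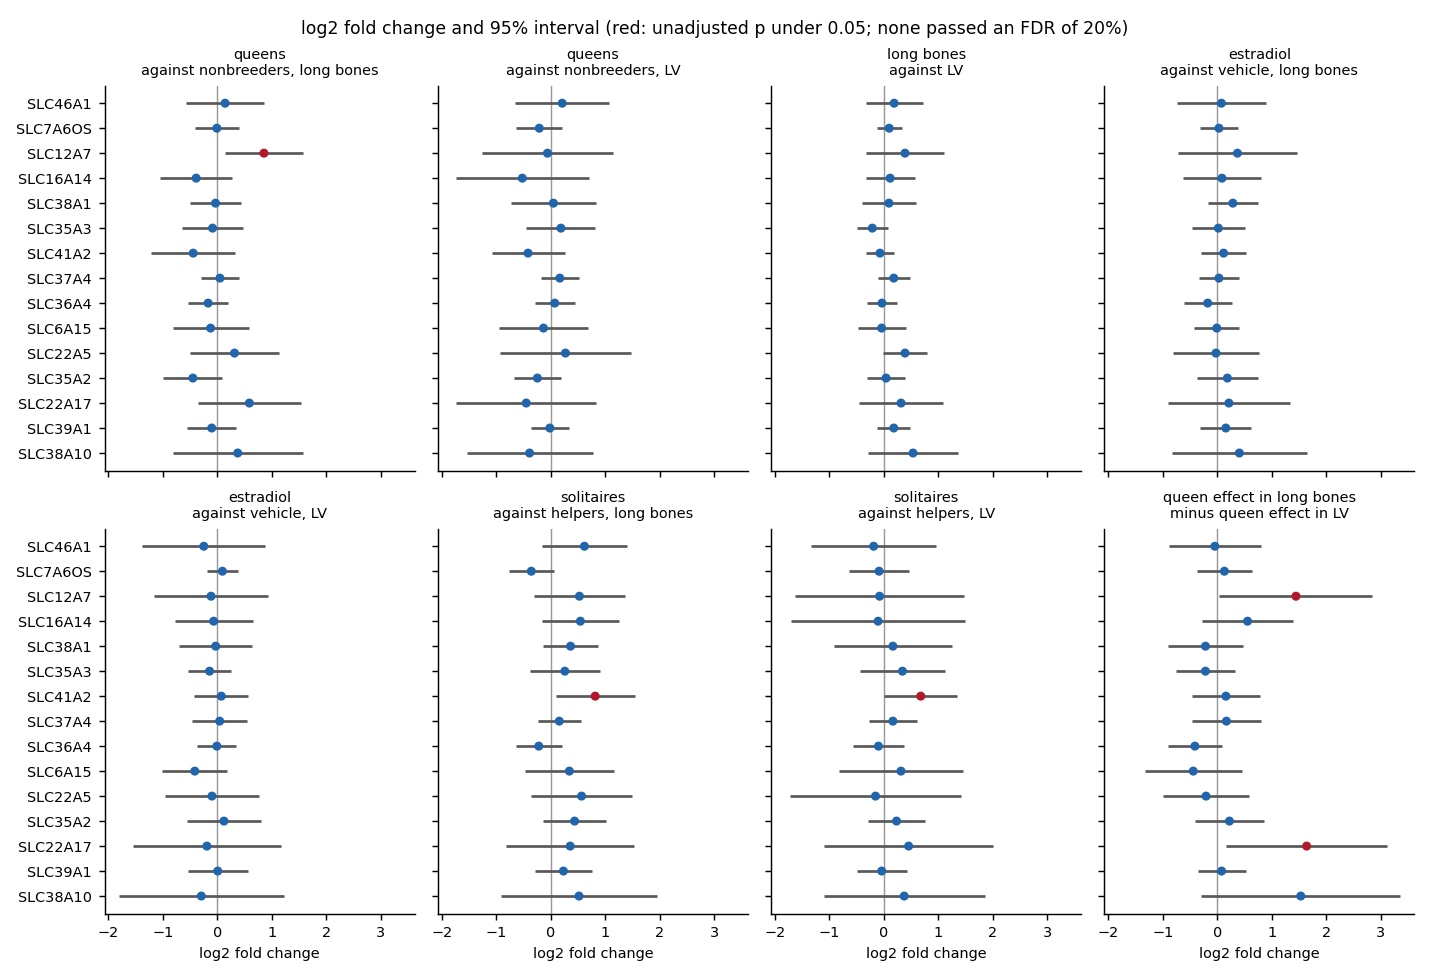
Log2 fold change (x axis, points) with 95% interval (lines) of the 15 genes (y axis) in the 8 comparisons, from edgeR's fits across all 11047 genes, with red points at an unadjusted p under 0.05. The red points are SLC12A7 for queens in the long bones, SLC41A2 for solitaires in both bone types, and SLC12A7 and SLC22A17 for the difference between the queen effects, and none passed an FDR of 20%.

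In the LV, with 4 queens and 10 nonbreeders, none of the 15 genes passed an FDR of 10% or 20%, and neither did any other gene (0.0%). None had an unadjusted p under 0.05, which 3.42% of all genes had, and 6 of 15 were higher in queens against 51.8% of all genes (median log2 fold change -0.06, and 0.01 over all genes). SLC12A7 had -0.06 (SE 0.53, 95% interval -1.26 to 1.15). It was at 8.08 CPM in the LV of WAF014 and at 1.88, 1.72 and 0.924 CPM in the other 3 queens, against 1.13 to 6.31 CPM with a median of 3.12 CPM in the nonbreeders. SLC37A4 was at a higher level in the queen of all 4 pairs of sisters, by 0.09 to 0.22 on the log2 scale, and a common sign in all 4 pairs was seen in 7.22% of all genes. Its fitted log2 fold change was 0.17 (SE 0.15, edgeR adjusted p = 0.999). In the pair of MAF006 and MAF003, the LV library of the queen had estradiol and that of her sister had vehicle.

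The difference between the queen effect in the long bones and that in the LV was fitted on the 14 animals with both bone types, with animal as a block. No gene passed an FDR of 10% (0.0%) and 2 of the 15 had an unadjusted p under 0.05, against 4.88% of all genes. By sign 9 of 15 were above 0, against 53.8% of all genes (median 0.13, and 0.03 over all genes). SLC22A17 had a difference of 1.64 (SE 0.70, 95% interval 0.17 to 3.12, edgeR adjusted p = 0.794) and SLC12A7 of 1.44 (SE 0.66, interval 0.04 to 2.85, adjusted p = 0.794). SLC38A10 had 1.53 (SE 0.86, interval -0.29 to 3.36). For SLC22A17 the queens were at 74.8, 30.4, 13.1 and 5.20 CPM in the long bones of DVF007, LAF007, WAF014 and MAF006, and at 10.6, 3.02, 33.1 and 1.39 CPM in their LV. So 3 of these queens were higher in the long bones and WAF014 was higher in the LV. The fit sets this against the same difference in the nonbreeders, whose levels are not listed here. Treatments were unlike between the bone types of some queens. LAF007 had estradiol only in the long bones, DVF007 had it only in the LV, and MAF006 had no vehicle library in the LV. The fitted differences depended on WAF014. Without WAF014 the differences were 2.67 for SLC22A17 (edgeR adjusted p = 0.0116), 2.45 for SLC12A7 (0.0193) and 2.74 for SLC38A10 (0.0263), and 1092 genes passed an FDR of 10%. With vehicle libraries only, they were 0.35, 0.40 and 0.20 (edgeR adjusted p = 1 for each). That fit also lacks MAF006, whose only LV library had estradiol, so treatment and her absence cannot be told apart there.

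The bone types themselves were compared in the vehicle libraries of 13 animals, with animal as a block. None of the 15 SLC genes passed an FDR of 10%, against 6.83% of all genes, or of 20%, against 10.4%. None had an unadjusted p under 0.05, against 16.3% of all genes. By sign 11 of 15 were higher in the long bones (56.0% of all genes were), with a median log2 fold change of 0.11 (0.04 over all genes). No SLC gene had one sign in all 13 animals, as 1.37% of all genes had. The smallest p was that of SLC22A5, with 0.39 (SE 0.19, 95% interval -0.01 to 0.79, edgeR adjusted p = 0.328), which was higher in the long bones in 9 of 13 animals. SLC38A10 was higher in 11 of 13 animals, with a median difference of 0.37 and a fitted 0.53 (SE 0.39, interval -0.29 to 1.36). SLC41A2 (-0.07, interval -0.33 to 0.19), SLC36A4 (-0.04, -0.30 to 0.23) and SLC7A6OS (0.10, -0.14 to 0.33) had the narrowest intervals. Without the animal WAF011, 2 of the 15 passed an FDR of 20%, and the share of all genes at that FDR in this fit is not given here. At an FDR of 10%, 0 of the 15 passed without WAF011, where 1391 of all 11047 genes did.

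Lists of other genes of transport and metabolism were counted in the same comparison of bone types, in which 6.83% of all genes passed an FDR of 10%. Of 19 Golgi glycosylation enzymes, 1 was higher and 2 were lower in the long bones at an FDR of 10%. GALNT7, an enzyme of mucin-type O-glycan synthesis, fell by 0.34 (SE 0.09, edgeR adjusted p = 0.0399), and the sialyltransferase ST3GAL5, which makes the ganglioside GM3, fell by 0.51 (SE 0.15, adjusted p = 0.0735). The sialyltransferase ST6GALNAC3 rose by 0.76 (SE 0.22, adjusted p = 0.0578). Of 9 genes of carnitine, folate and glycogen metabolism, PYGL, the liver-type glycogen phosphorylase, was higher (0.78, SE 0.17, adjusted p = 0.0117). Of 18 other membrane transport genes, ATP6V1D, a subunit of the vacuolar proton pump, was lower (-0.26, SE 0.08, adjusted p = 0.0957). None of 10 genes of amino acid sensing and mTORC1 signalling passed. Among cell type markers, 5 of 15 leukocyte genes rose, LCP2 by 1.16 (adjusted p = 0.0125), FLT3 by 1.08 (0.0192) and LAPTM5 by 1.12 (0.0247) among them. PPARG, 1 of 3 adipocyte markers, rose by 1.02 (adjusted p = 0.00032), and PHEX, 1 of 13 stromal markers, fell by 0.62 (adjusted p = 0.0468), while no marker of proliferation (8), endothelium (4), smooth muscle and pericytes (4) or osteoclasts (CTSK) passed. In the other 7 comparisons, no gene of these 11 lists passed an FDR of 10%.

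Estradiol was compared with vehicle in pairs of cultures of the same animal. In the long bones (10 pairs), none of the 15 genes passed an FDR of 10% (0.0% of all genes) or had an unadjusted p under 0.05 (1.17% of all genes). By sign of the estimate 12 of 15 were higher with estradiol, against 51.1% of all genes, with a median log2 fold change of 0.09 (0.004 over all genes). No SLC gene was higher in more than 6 of the 10 pairs, and SLC46A1 and SLC35A3, with estimates above 0, were so in 4. With 1 animal left out, the estimate ran from -0.11 to 0.515 for SLC22A17, 0.02 to 0.61 for SLC12A7 and 0.04 to 0.71 for SLC38A10. In the LV (7 pairs), the count was 5 of 15, against 49.1%, with a median of -0.07 (-0.003 over all genes), and again none had an unadjusted p under 0.05 (0.498% of all genes) or passed an FDR of 10% (0.0%). SLC38A1 had the smallest p in the long bones, with 0.29 (SE 0.22, 95% interval -0.18 to 0.75, edgeR adjusted p = 1.00). SLC6A15 had it in the LV, with -0.42 (SE 0.27, interval -1.01 to 0.18, edgeR adjusted p = 1). Precision differed widely between genes. For SLC7A6OS the interval in the LV was -0.20 to 0.38, and for SLC38A10 it was -1.81 to 1.22 there and -0.83 to 1.64 in the long bones, so a 2-fold change of SLC38A10 in either direction lay within the interval in the LV. No SLC gene moved one way in all pairs of a bone type, as 0.0543% of all genes did in the long bones (0.362% in the LV).

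The solitaire against helper contrast came from a model with queens as a separate group and natal colony as a block. In the long bones (4 solitaires, 7 helpers) none of the 15 genes passed an FDR of 10%, which 0.00905% of all genes did. One had an unadjusted p under 0.05, against 8.75% of all genes, and 13 of 15 were higher in solitaires by sign, against 50.0% of all genes, with a median log2 fold change of 0.36 (-0.0003 over all genes). This count depended on the block: by group means of log2 CPM, with no colony term, 5 of 15 were higher in solitaires. The gene with the unadjusted p under 0.05 was SLC41A2, with 0.82 (SE 0.32, 95% interval 0.09 to 1.54, edgeR adjusted p = 0.547). Its levels were 80.4, 66.5, 51.7 and 37.7 CPM in the solitaires G4F020, G1F025, MAF003 and WEF001, and ran from 35.3 to 81.1 CPM with a median of 58.5 CPM in the helpers, so the ranges overlapped almost fully. The fitted difference is one between animals of a colony, and only 3 colonies held a solitaire and a helper. The colony of MAF003 held a solitaire and the queen MAF006, and it entered the solitaire term by way of the queen term. In 2 of the 3 colonies (G1F025 and G1F022, G4F020 and G4F019) the sisters have different fathers by the study's methods. In each of the 3, a sister had libraries of both treatments and the other had vehicle only. Between these sisters SLC41A2 was higher in the solitaire in 3 of 3, by 0.09 to 0.66 on the log2 scale with a mean of 0.40. A common sign in all 3 was seen in 24.9% of all genes. Markers of stromal cells and of proliferation moved beside it in the same fit. By sign 11 of 13 stromal markers were higher in solitaires (median 0.67) and 0 of 8 proliferation markers were (median -0.54), none past an FDR of 10%. These signs also depended on the block. By group means with no colony term, the stromal markers were at a log2 CPM of 6.77 in solitaires and 6.88 in helpers. The proliferation markers were at 5.40 and 5.34. Their part in the SLC41A2 value was not tested. The log2 fold change was 0.38 without MAF006 or MAF003 and 0.01 with no block for colony.

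In the LV (4 solitaires, 6 helpers) SLC41A2 was again the gene with an unadjusted p under 0.05, with 0.67 (SE 0.29, 95% interval 0.00 to 1.35, edgeR adjusted p = 0.998), and 2.79% of all genes reached that threshold. The solitaires were at 115, 74.8, 62.8 and 58.0 CPM and the helpers between 50.8 and 68.0 CPM with a median of 60.7 CPM, so 2 solitaires lay above all helpers. Of the 2 pairs of sisters, 1 of them with different fathers, SLC41A2 was higher in the solitaire in 1 (38.1% of all genes had a common sign in both). The log2 fold change was 0.34 without MAF006, 0.35 without MAF003 and 0.04 with vehicle libraries only (a fit that also lacks MAF006), none with an unadjusted p under 0.05. By sign 8 of 15 genes were higher in solitaires (50.3% of all genes), with a median of 0.16 (0.002 over all genes), and by group means 3 of 15 were. None passed an FDR of 10% (0.0% of all genes). SLC7A6OS had lower levels in the LV of solitaires by group means, 3.71 ± 0.15 (SD, n = 4) against 4.02 ± 0.17 (n = 6) in log2 CPM (exact permutation test, two-sided p = 0.0143, adjusted p = 0.857 over 60 tests), and in the fit with colony its log2 fold change was -0.09 (interval -0.65 to 0.47). Over the 60 exact tests of levels, the groups did not overlap for 0 genes, where 0.0634% and 0.172% of all genes did not overlap between queens and the other females (long bones and LV) and 0.489% and 1.23% between solitaires and helpers.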

How the data were processed

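The 47 libraries were RNA-Seq of bMSC-enriched cultures. The deposited table holds counts per Ensembl gene: the authors trimmed reads with cutadapt 2.3, aligned them to DMR_v1.0 with STAR and counted uniquely mapped reads with HTSeq. The strand setting is not given in the sources used here, so counts of overlapping and antisense genes, SLC7A6OS among them, are uncertain. Symbols came from the study's annotation table, of which 1594 rows were at hand, 1316 with a symbol. RNA-Seq depth was 5329563 to 16327339 counts, with a median of 8784879, which limits precision for genes with few counts.

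The labels gave group, bone type and treatment. They give no colony, which was read from the first letters of each animal's name, since sisters share them (2 pairs of sisters have different fathers, per the study's methods). After group means were removed, the correlation over genes between sisters was 0.0403 to 0.811 in the long bones and 0.117 to 0.585 in the LV, with medians of -0.127 and -0.0612 between other animals. The block for colony was taken from the study's methods. For the 2 cultures of an animal it was 0.0289 to 0.896 in the long bones and -0.0951 to 0.733 in the LV, and for the long bone and LV library of an animal -0.119 to 0.796. No 2 libraries of a group were copies (86 pairs, lowest chi-square per degree of freedom 26.2).

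Tests were two-sided edgeR 4.0.16 quasi-likelihood fits on counts in R 4.3.3 (TMM, CPM of 2 or more in 25% of libraries, FDR of 10%, with 20% also given), with 95% intervals from the fit. Levels are CPM scaled by TMM, or log2 CPM with a prior count of 2. Single levels were tested with exact permutation tests, and correlations over animals with 100000 permutations, using Python 3.11.15 with numpy 2.4.6 and pandas 2.3.3 and matplotlib 3.10.9 for plots. The fits were tested on simulated data. Alternatives were DESeq2 1.42.0 (Wald test, and its size factors in edgeR), limma 3.58.1 (voom), no filter, no block, vehicle libraries only, all libraries summed or nonbreeders only for bone type, CPM without TMM factors, and leaving out each animal.

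The genes described, all genes the rule selects, and the lists were chosen with earlier results of these data known. From each list, in a comparison, up to 3 genes past an FDR of 10% with the smallest p were named, or the one with the smallest p. Marker lists were stromal, leukocyte, osteoclast, smooth muscle and pericyte, endothelial, adipocyte and proliferation; the other 4 lists were Golgi glycosylation enzymes, amino acid sensing, metabolism and other membrane transporters. Columns of the authors' own test results in the supplement were not used. Sequences are not shown.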

Additional observations from a re-analysis of the deposited data

Results flagged for a closer look

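In 11 of 120 groups of 4 to 10 values, 1 animal lay far from the others by Dixon's test, where 6 would be flagged by chance at 1 in 20. Of these, 4 concern MAF006, the queen with the lowest stromal and the highest leukocyte markers in the long bones. Among the queens her long bone level in log2 CPM was 3.16 for SLC41A2, with the others from 5.72 to 6.48, it was 5.16 for SLC35A2, with the others from 7.12 to 7.85, and it was 4.57 for SLC7A6OS, with the others from 3.79 to 3.97. The difference between her estradiol and vehicle long bone cultures for SLC7A6OS was 1.09, with the other 9 pairs from -0.56 to 0.19.

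Among the helpers, the helper DVF008, sister of the queen with the highest SLC38A10, had 5.66 for SLC22A17 in the long bones, with the others from 2.58 to 3.80, and 2.84 for SLC22A5 in the LV, with the others from 0.79 to 1.26. The helper G4F019 had 0.28 for SLC46A1 in the long bones, with the others from 1.10 to 1.69, and 2.63 for SLC38A1 in the LV, with the others from 3.73 to 4.35. The helper WEF002 had 6.75 for SLC35A2 in the LV, with the others from 7.37 to 7.60, and an estradiol minus vehicle difference of 1.56 for SLC36A4 in the long bones, with the other 9 pairs from -1.02 to 0.22. The solitaire G1F025 had 2.48 for SLC22A5 in the long bones, with the others from 1.27 to 1.41.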

How the results depend on the processing

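None of the 15 SLC genes passed an FDR of 10% in any fit as designed, and this held in all 735 values from other settings of the fits and in 1557 of 1560 values with 1 animal left out. The 3 exceptions are SLC12A7 (2.45), SLC22A17 (2.67) and SLC38A10 (2.74) for the queen effect in long bones against LV without WAF014. The sign of an uncalled estimate changed in 79 and 150 of these values. No paired call was gained or lost among the SLC genes when the block was removed (no replicate block). At an FDR of 20%, DESeq2 called SLC12A7 for queens in the long bones (adjusted p = 0.196). The share of all genes that DESeq2 called at that FDR is not given here.

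The number of genes past an FDR of 10% over the whole table moved more. For queens in the long bones (0) it was 391 with DESeq2, 274 with limma voom, 1015 with no filter on low counts, 1 with no replicate block, 76 with vehicle libraries only, and 0 to 271 with an animal left out (271 without DVF007 or DVF008). For queens in the LV (0) it was 105 with DESeq2, 378 with no filter, and 0 to 16 with an animal left out (16 without WEF001 or WEF002). For long bones against LV (755) it was 2179 with all libraries summed, 251 with no replicate block, 394 with nonbreeders only, and 563 to 1391 with an animal left out (1391 without WAF011). For estradiol (0) it was 5 with DESeq2 and 7 with no filter in the long bones, and 6 with DESeq2 in the LV. For solitaires in the long bones (1) it was 139 with DESeq2, 9 with no filter, 0 with no replicate block, 0 with vehicle libraries only, and 0 to 8 with an animal left out (8 without WEF001 or WEF002). For solitaires in the LV (0) it was 6 with DESeq2, 9 with no filter, and 0 to 9 with an animal left out (9 without WEF001 or WEF002). For the difference between queen effects (0) it was 3 with DESeq2, and 0 to 1092 with an animal left out, with 0 to 3 of the SLC genes (1092 and 3 without WAF014). The causes were not tested.

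Of the 60 correlations with marker lists, 52 stayed on their side of an adjusted p of 0.05 with vehicle libraries only. In the long bones the stromal relation was then lost for SLC7A6OS (-0.04), SLC16A14 (0.56) and SLC38A1 (0.53). It was gained for SLC46A1 (0.66), SLC12A7 (0.72) and SLC37A4 (0.70). Without MAF006 these 6 values were -0.07, 0.72, 0.605, 0.28, 0.76 and 0.64. The gain for SLC46A1 thus rested on her, and r of SLC16A14 was higher without her. In the LV the stromal relation was gained for SLC39A1 (0.69), and the leukocyte relation of SLC6A15 was lost (-0.57). Without the 2 farthest animals these were 0.36 and -0.43. CPM without TMM factors changed no call among 60 tests of levels. Depth limits SLC46A1, SLC22A5 and SLC12A7 most, with 2 to 4 counts in their lowest libraries.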
